A study of Xenopus laevis with 8 samples.

Results

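The array series of xSuv4-20h morphant *Xenopus laevis* neurulae was made from embryos of independent experiments, and the labels number its replicates 1 and 2. Here the 4 arrays of replicate 2 were compared with the 4 arrays of replicate 1, which together are all 8 arrays of the series. Members were chosen by the replicate number of the label alone, and each array of replicate 2 was matched to the array of replicate 1 with the same morpholino and the same side of the embryo, which gave 4 matched differences.

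Each replicate held 4 arrays. For control morphants and for double morphants alike, 1 array carried RNA from the side that had been injected and 1 carried RNA from the opposite, uninjected side. Control morphants had received a control morpholino. Double morphants had received morpholinos against the mRNAs of the histone methyltransferases xSuv4-20h1 and xSuv4-20h2 (kmt5b and kmt5c), which place di- and trimethyl marks on lysine 20 of histone H4. No strain or clutch is named in the labels. By the labels a total dose of 40 ng went into a pair of adjacent cells of 1 side, either animal or vegetal ones with no word on which for any array, whereas the supplement of the study describes a larger total amount given to 1 cell of the embryo at its first division. Neurulae were cut along the midline, sides were sorted by a fluorescent tracer, and several sides were pooled for each array. All values are expression values on a log2 scale, so that a difference of 1 is a doubling, and differences are given as replicate 2 minus replicate 1. An experiment was taken as the unit behind the replicate number, with 1 of each. The sources do not state that a number means the same experiment in control and double morphants. On this reading the 4 matched differences share 1 pair of experiments, and both sides of a kind of morphant come from the same embryos. The adjusted p-values therefore measure the spread among the 4 matched differences only. Clutch, exact age of the embryos, the cells injected, midline cut, RNA preparation and array processing could each differ between the experiments and cannot be told apart.

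At the neurula stage the neural plate folds over the notochord, blocks of somite beside it begin to make muscle, and the outer ectoderm matures into an epidermis that carries mucus cells, ionocytes and multiciliated cells. Cell divisions slow down between gastrulation and neurulation, and mRNAs that were stored in the egg or that pattern the gastrula fade while those of differentiated tissues accumulate. *Xenopus laevis* is an allotetraploid, and most of its genes exist as a pair of homeologs, which are written .L and .S after the chromosome of the pair on which they lie.

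Over the 8220 genes tested, the replicate number accounted for 37.9% of the variance between arrays, the side for 25.8% and the morpholino for 15.3%. Interactions of the replicate with the side and with the morpholino took 6.77% and 4.80%. In a principal component analysis the first component held 48.6% of the variance. On it the array of replicate 2 lay above its match of replicate 1 in all 4 groups, and the injected side lay above the uninjected side in each kind of morphant and each replicate. The medians of the arrays differed little (8.25 to 8.27 in replicate 1, 8.24 to 8.25 in replicate 2), as the normalization of all arrays together makes them do. In the mean of the 4 groups, 30 bright probe sets for spiked-in control RNAs differed by -0.17 to 0.10 between the replicates. Single matched arrays differed by more. The spike-in thr-M read 8.08 and 7.51 in double uninjected sides of replicates 1 and 2, and 8.0 and 8.21 in control injected sides. The probe sets at the 3′ and 5′ ends of gapdh.L, a check of RNA integrity, differed by 0.25 to 0.35 in replicate 1 and by 0.30 to 0.37 in replicate 2. Of 30 marker genes for 13 tissues of the neurula, 24 lay at or above 4 on all arrays, among them the neural plate gene sox2.L (10.75 to 11.61), the epidermal keratin krt12.4.S (13.19 to 14.19) and the endodermal gene a2m.S (13.29 to 13.71). The others were tubb3, six6, sox10, shh, gata1 and tal1, and gata1, which marks blood, was at the lowest value on every array.

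**Figure D1:**
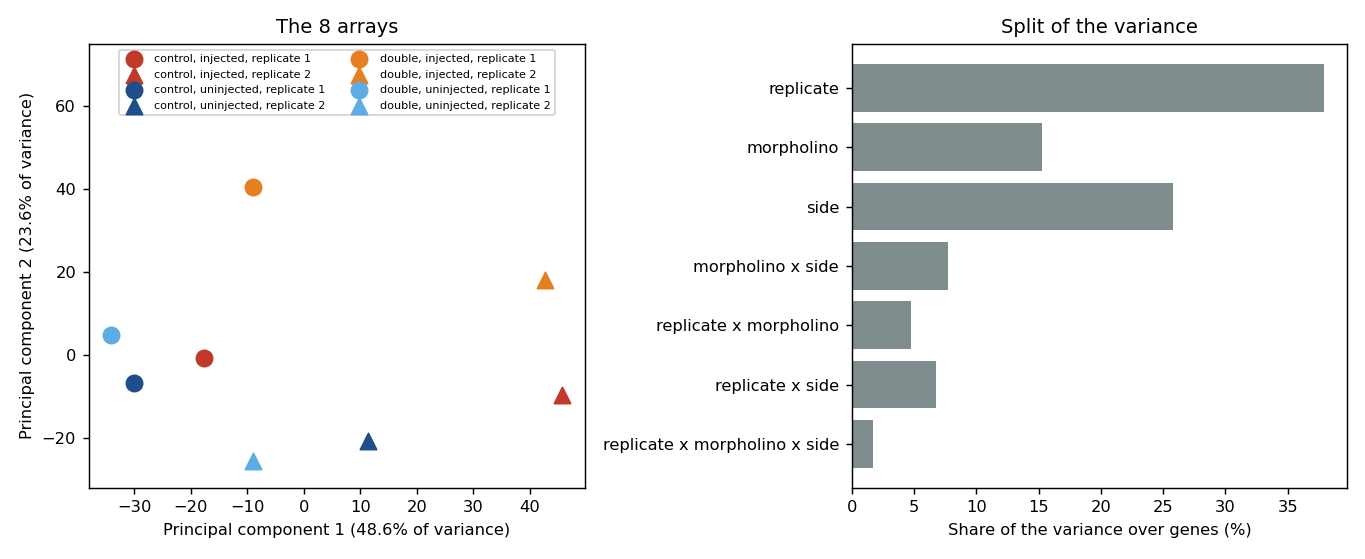
Left, the 8 arrays on the first 2 principal components (arbitrary units; circles, replicate 1; triangles, replicate 2; colours, the 4 groups). Right, share of the variance over 8220 genes taken by each factor and their products, of which replicate was the largest with 37.9%.

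Between the replicates 1218 genes were higher in replicate 2 (14.8% of the 8220 tested) and 1174 were lower (14.3%), at a limma adjusted p under 0.05, so that 29.1% of the tested genes were called. The median difference of all genes was 0.002. Called genes differed by a median of 0.60 in either direction. A called difference of at least 1 was seen in 171 higher and 262 lower genes, and of at least 2 in 25 higher and 36 lower genes. All 4 matched differences had one sign in 2386 of the 2392 called genes, which the call itself favours because it uses these differences. Over all 8220 genes, all 4 were positive in 2233 and all 4 negative in 2117. Without any test 746 genes (9.08%) had all arrays of replicate 2 above all arrays of replicate 1, while 726 (8.83%) had them below. For a single gene, an exact permutation of the signs of 4 differences cannot give a two-sided p under 0.125. The calls therefore rest on the model of limma, which assumes normal errors and joins the spread of each gene with a spread shared across genes. The counts also rest on the number of matched arrays. Without the matched arrays of control injected, control uninjected or double injected sides 613, 402 and 430 genes were higher and 672, 454 and 450 were lower, and without those of double uninjected sides 1162 and 1059.

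The replicate difference was not the same on both sides of the embryo. With a term for replicate and side together, 25 genes (0.304%) had a lower replicate difference in injected than in uninjected sides and 0 (0%) a higher one, and 595 genes had an unadjusted p under 0.05. The adjusted p-values of the 25 lay between 0.0301 and 0.0489, and none passed when genes below the filter were tested too, nor when the matched arrays of control injected, control uninjected or double uninjected sides were left out (48 genes passed without those of double injected sides, 16 of them among the 25). All 25 differences stayed negative in these settings, but the genes had been picked by the same values, so the kept sign is no separate support. With the corresponding term for double against control morphants limma called 0 genes (0%), with 1080 genes at an unadjusted p under 0.05. Of the 25 genes, 11 stood in the lists of muscle, notochord or matrix genes, and the named ones are described with the mesoderm. They set both injected sides of replicate 2 apart from the other 6 arrays. For this reason medians of uninjected sides are given beside several gene groups. With uninjected sides alone, on 2 matched differences, 109 genes were called higher and 160 lower.

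Gene groups were described by 43 lists of genes, for which the number of called members and the median difference are given beside the 14.8% higher and 14.3% lower of all genes. Lists for cell division, DNA replication, the proteasome and the mitochondrial ribosome lay towards replicate 2. Lists for epidermis, multiciliated cells, muscle, matrix, and hindbrain and Hox genes lay towards replicate 1. With no filter on low values the medians of the ionocyte, gland, heart and blood, and neuronal lists came to -0.05, -0.09, -0.05 and -0.10, and without the matched arrays of control injected sides those of the Hox and paraxial lists to -0.19 and -0.14.

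**Figure D2:**
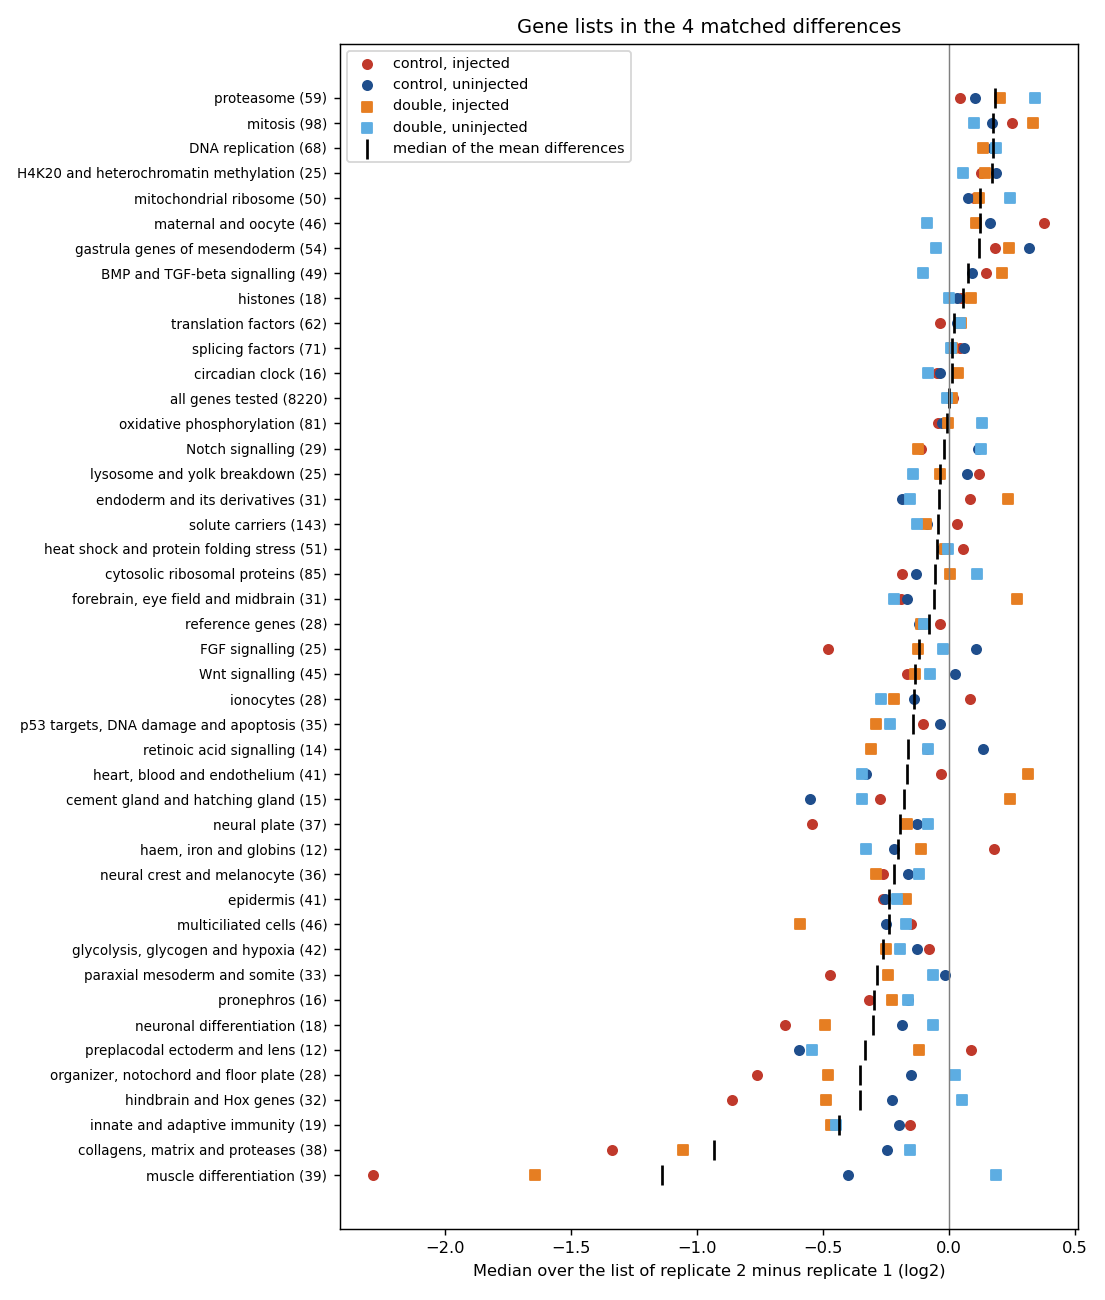
Median over each gene list (number of genes tested in brackets) of replicate 2 minus replicate 1 on the log2 scale, for the 4 matched differences (points, by group) and for their mean (black bars). For mitosis and DNA replication all 4 medians lie above 0, and for muscle the medians of the injected sides lie at -2.28 and -1.64 and those of the uninjected sides at -0.40 and 0.19.

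Genes of cell division were higher in replicate 2. Of 98 tested genes that act in mitosis, 34 were higher and 3 lower (34.7% and 3.06%, against 14.8% and 14.3% of all genes). Their median was 0.17 against 0.002 for all genes. The medians of the 4 matched differences were 0.25, 0.17, 0.33 and 0.10, in the order control injected, control uninjected, double injected and double uninjected side, which is kept throughout. The largest differences were those of espl1.S, kif11.S, cenpk.L and dlgap5.L. The level of espl1.S, which encodes separase, the protease that releases sister chromatids, was 6.04, 5.90, 5.91 and 6.04 in replicate 1 and 7.61, 7.23, 7.47 and 7.27 in replicate 2. All arrays of replicate 2 lay above those of replicate 1, and the difference was 1.42 (SE 0.09, adjusted p = 0.00238). For kif11.S, the motor that pushes spindle poles apart, the values were 9.11, 9.32, 9.64 and 9.52 in replicate 1 and 10.47, 10.26, 10.86 and 10.34 in replicate 2, a difference of 1.08 (SE 0.12, adjusted p = 0.00528), again without overlap. The kinetochore gene cenpk.L and the spindle gene dlgap5.L differed by 0.96 (adjusted p = 0.00571) and 0.94 (adjusted p = 0.00912). Cyclin B2, the partner of the mitotic kinase, was higher for both homeologs (ccnb2.L 0.71, ccnb2.S 0.43), as were both copies of kif11, cenpn, kif20a, dlgap5, espl1, nuf2 and cks2. The 3 lower genes were the chromosome motor kif4a.S (-0.52), the microtubule regulator stmn1.S (-0.42) and the checkpoint kinase ttk.S (-0.36). The copy stmn1.L had the opposite sign and was not called (0.37). The median of the list was 0.13 in uninjected and 0.28 in injected sides, and with uninjected sides alone limma called 1 of its genes higher and 0 lower (19 and 5 at an unadjusted p under 0.05).

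Genes of DNA replication showed the same direction. Of 68 tested genes 18 were higher and 2 lower (26.5% and 2.94%, against 14.8% and 14.3% of all genes). The medians of the matched differences were close to each other (0.18, 0.17, 0.13 and 0.19). The largest was rpa3.S, the smallest subunit of the protein that coats single-stranded DNA, with values of 4.91, 4.92, 4.96 and 4.96 in replicate 1 and 8.01, 8.07, 8.04 and 7.97 in replicate 2. Its 4 differences were 3.1, 3.15, 3.09 and 3.0, and no other called gene of this list came near it (mean 3.08 (SE 0.07, adjusted p = 0.000177)). The homeolog rpa3.L differed by 0.36 only, with an adjusted p of 0.103. Next came the catalytic subunit of polymerase epsilon pole.L (0.96 (adjusted p = 0.0084)), the origin recognition subunit orc4.L (0.86 (adjusted p = 0.0101)) and topbp1.L, which helps to start replication (0.83 (adjusted p = 0.033)). For orc4.L the values were 6.68, 6.29, 5.26 and 5.68 in replicate 1 and 7.34, 6.85, 6.43 and 6.74 in replicate 2. Here the groups differed among themselves and the ranges of the replicates overlapped, yet each matched difference was positive. The lower genes were the helicase subunit mcm4.S (-0.46) and thymidylate synthase tyms.L (-0.44), which makes a DNA precursor. The copy mcm4.L was not called (0.16). The homeologs of another helicase subunit, mcm7.L and mcm7.S, were both higher (0.31 and 0.38).

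The machinery of protein turnover and the mitochondrial ribosome were also higher in replicate 2. In the proteasome 19 of 59 tested genes were higher and 4 lower (32.2% and 6.78%, against 14.8% and 14.3% of all genes), with a median of 0.18. Its matched medians were 0.044, 0.105, 0.203 and 0.343, lower in control than in double morphants. Among the largest differences were those of psmb8.L, a catalytic subunit of the immunoproteasome (1.23 (adjusted p = 0.0115)), and psme1.L (0.99 (adjusted p = 0.0207)), a subunit of the ring that activates the proteasome. Both psme1 and psme3 were higher with both copies, whereas psme2.L (-1.18 (adjusted p = 0.00449)), the partner of psme1 in the activator ring, was lower, as was the core subunit psma3.S (-0.91 (adjusted p = 0.0176)). The copy psma3.L was not called (0.09). Of 50 genes of the mitochondrial ribosome 13 were higher, with mrpl3.S (1.29 (adjusted p = 0.00355)) and mrpl23.S (0.80 (adjusted p = 0.00484)) in front, and mrpl17.S (-1.17 (adjusted p = 0.0305)) and mrps36.S (-0.60) were lower. The matched medians of this list were 0.101, 0.077, 0.121 and 0.244. With uninjected sides alone limma called 1 gene higher and 1 lower in this list, and likewise in the proteasome list. The cytosolic ribosome stood apart from these groups. Of 85 ribosomal protein genes 0 were called higher and 2 lower, and their median was -0.06. In oxidative phosphorylation 9 genes were called higher and 11 lower of 81 (median -0.01). These shares of 11.1% and 13.6% lay near those of all genes.

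Heat shock and folding genes were called in both directions at shares near those of all genes (15.7% higher and 19.6% lower). The list had 8 higher and 10 lower members of 51 and a median of -0.05. The higher members included the Hsp90 co-chaperones stip1.S (1.12 (adjusted p = 0.00613)), ahsa1.L (0.95 (adjusted p = 0.00949)) and fkbp4.L (0.69) and the Hsp110 gene hsph1.L (0.91 (adjusted p = 0.00355)), each with its second homeolog higher as well. Values of stip1.S were 7.35, 7.55, 7.36 and 7.01 in replicate 1 and 8.53, 8.25, 8.77 and 8.21 in replicate 2, with all arrays of replicate 2 on top. Among the lower members were chaperones of the endoplasmic reticulum, hsp90b1.S (-0.64 (adjusted p = 0.00622)), hspa5.L (-0.57) and calr.S (-0.56), and the disulfide isomerases pdia4.L (-0.53) and pdia6.S (-0.62). The second copies calr.L (-0.53) and pdia6.L (-0.40) were called lower too, whereas hsp90b1.L (0.06) and hspa5.S (-0.31) were not called. Neither copy of canx, another chaperone of the reticulum, was called (canx.L -0.15, canx.S -0.08). The compartments of these genes were looked at after their values were known.

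In the list of genes that mark the gastrula 16.7% were higher, near the 14.8% of all genes, and 3.7% lower, against 14.3%. Of 54 tested genes of the gastrula mesendoderm 9 were higher and 2 lower (median 0.12), and the matched medians were 0.18, 0.32, 0.24 and -0.05. Without the matched arrays of double injected sides the median was 0.01 and without those of double uninjected sides 0.24. The higher genes included the ventral homeobox gene ventx1.1.S (1.26 (adjusted p = 0.00862)), the Nodal co-receptor tdgf1.3.L (1.21 (adjusted p = 0.025)) and the T-box genes eomes.L (1.2 (adjusted p = 0.019)) and vegt.S (1.09 (adjusted p = 0.00863)), which specify mesoderm and endoderm. The second copies ventx1.1.L (-0.40, of the opposite sign) and vegt.L (0.14) were not called. Values of eomes.L were 4.65, 5.50, 6.67 and 5.72 in replicate 1 and 6.48, 7.04, 7.67 and 6.17 in replicate 2. Brachyury (tbxt.L, 0.64), which marks the blastopore ring and then the notochord, and the endodermal gene mix1.L (0.63) were higher as well. A second Nodal co-receptor, tdgf1.2.S (-0.93 (adjusted p = 0.0119)), and the Wnt inhibitor frzb.S (-0.85 (adjusted p = 0.0492)) were lower. The copy frzb.L had the opposite sign and was not called (0.525).

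The POU-V genes, relatives of mammalian Oct4 that keep cells of the gastrula uncommitted, did not move together. Values of pou5f3.2.L (Oct-25) were 8.48, 8.06, 9.98 and 8.0 in replicate 1 and 9.75, 9.2, 11.10 and 8.17 in replicate 2, with matched differences of 1.27, 1.14, 1.12 and 0.17. Its injected sides of double morphants were the highest arrays in either replicate, the ranges of the replicates overlapped, and the mean difference was 0.92 (SE 0.20, adjusted p = 0.0243). For pou5f3.1.L (Oct-91) the mean was -0.24 (adjusted p = 0.416) with differences of 0.17, 0.24, -0.48 and -0.90, of both signs. The low values of pou5f3.3.L (Oct-60, an oocyte gene) differed by 0.22 (adjusted p = 0.544). Maternal and oocyte mRNAs were mixed, with 10 of 46 higher and 5 lower (21.7% and 10.9%, against 14.8% and 14.3% of all genes). The germ plasm genes nanos1.L (1.78 (adjusted p = 0.0163)) and tdrd6.L (1.42 (adjusted p = 0.0104)) were higher, while the maternal linker histone h1-8.S (-1.91 (adjusted p = 0.00378)) and nucleoplasmin npm2.S (-0.95 (adjusted p = 0.00554)) were lower. The copy npm2.L was not called (0.05).

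The enzymes targeted in double morphants were measured on all arrays as mRNA, which a morpholino that blocks translation need not change. Values of kmt5b.L were 8.67, 8.48, 8.99 and 8.98 in replicate 1 and 7.82, 8.24, 8.40 and 8.33 in replicate 2. The mean difference was -0.58 (SE 0.12, adjusted p = 0.0206), and each matched difference was negative. Its homeolog kmt5b.S differed by 0.18 (adjusted p = 0.171). The probe set of kmt5c.L lay at or near the lowest value of the arrays (2.14 on 7 arrays and 2.38 on 1) and was not tested. Of 25 genes of H4K20 and heterochromatin methylation 5 were higher and 2 lower (20.0% and 8.0%, against 14.8% and 14.3% of all genes), with a median of 0.17. Both copies of eed, a subunit of Polycomb complex 2, were higher (eed.L 0.61, eed.S 0.67), as was suv39h1.L (0.49), a methyltransferase of histone H3. The monomethyltransferase kmt5a.S was called higher (0.70 (adjusted p = 0.012)), but of its 3 probe sets 2 were higher (0.70 and 1.04) and 1 was lower (-1.54), so that its direction depended on the probe set.

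The called genes of the epidermis list were all lower in replicate 2. In this list 0 of 41 tested genes were higher and 11 lower (0% and 26.8%, against 14.8% and 14.3% of all genes). The median was -0.24, and the 4 matched medians were close (-0.26, -0.26, -0.17 and -0.20). They included both copies of tp63, a regulator of epidermal progenitors, and evpl.L and ppl.L, which encode partner proteins of the epidermal cell envelope. Values of tp63.S were 7.01, 6.69, 6.17 and 6.50 in replicate 1 and 6.30, 5.69, 5.50 and 5.34 in replicate 2, a difference of -0.88 (SE 0.11, adjusted p = 0.00708). Each group was lower in replicate 2, but the ranges of the replicates overlapped. The differences of evpl.L and ppl.L were -0.92 (adjusted p = 0.00449) and -0.91 (adjusted p = 0.0164), and the larval keratins krt18.3.L (-0.69), krt12.4.S (-0.42) and krt12.4.L (-0.38) and the adhesion genes jup.L (-0.40) and epcam.L (-0.33) were lower by less.

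Genes of multiciliated cells, which move fluid over the skin, had the highest share of lower calls among the epidermal lists described here. Of 46 tested genes 18 were lower (39.1%, against 14.3% of all genes) and 0 were higher, with a median of -0.24 and matched medians of -0.15, -0.25, -0.59 and -0.17. Values of tekt3.S, a tektin of the axoneme, were 4.68, 4.64, 4.94 and 6.19 in replicate 1 and 3.35, 2.99, 3.26 and 4.44 in replicate 2. The uninjected side of double morphants was highest in both replicates and each array was lower in replicate 2 (-1.60 (SE 0.10, adjusted p = 0.002)). The homeolog tekt3.L (-0.93 (adjusted p = 0.00417)), the transport gene ift43.L (-0.94 (adjusted p = 0.00708)) and the central pair gene spag6.L (-0.90 (adjusted p = 0.0337)) were next. Lower calls reached dynein arms (dnai1.L -0.41, dnai2.S -0.48, dnal1.L -0.60), their assembly factor dnaaf3.L (-0.47) and ccdc78.S (-0.66), which acts when centrioles multiply. The transcription factor foxj1, which switches on motile cilia genes, was not called, with differences of -0.28 (adjusted p = 0.218) for foxj1.S and 0.08 (adjusted p = 0.586) for foxj1.L.

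Lists for other tissues of the ectoderm were shorter, with lower calls of 21.4% in ionocytes, 26.7% in the glands and 25.0% in placodes and lens. In ionocytes, which transport protons and salts, 0 of 28 tested genes were higher and 6 lower (median -0.14). The lower ones were the carbonic anhydrase ca2.S (-0.99 (adjusted p = 0.0175)) and subunits of the proton pump, led by atp6v0e1.S (-1.29 (adjusted p = 0.0115)) and atp6v0a1.L (-0.80 (adjusted p = 0.00499)), although the ionocyte regulator foxi1.L itself differed by 0.10 (adjusted p = 0.744). The copies ca2.L (-0.34) and atp6v0e1.L (-0.03) were not called. The matched medians of the ionocyte list were 0.08, -0.14, -0.22 and -0.27, and 11 of its 28 differences were positive. In the cement and hatching glands at the front of the head 4 of 15 genes were lower, with the astacin-like protease gene astl2d.1.L (-1.31 (adjusted p = 0.0147)) and both copies of the cement gland gene ag1 (ag1.S -0.71, ag1.L -0.42), and 1 was higher, crx.S (0.53), a homeobox gene. Neither copy of the cement gland marker agr2 was called (agr2.L -0.33, agr2.S 0.03). The median of the gland list was -0.36 in uninjected and 0.06 in injected sides. Placodal and lens genes had 3 lower of 12 (dlx6.L -0.85, dlx3.L -0.76, dlx6.S -0.49), whereas the copy dlx3.S was not called (0.005). Their median was -0.58 in uninjected and -0.05 in injected sides.

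**Figure D3:**
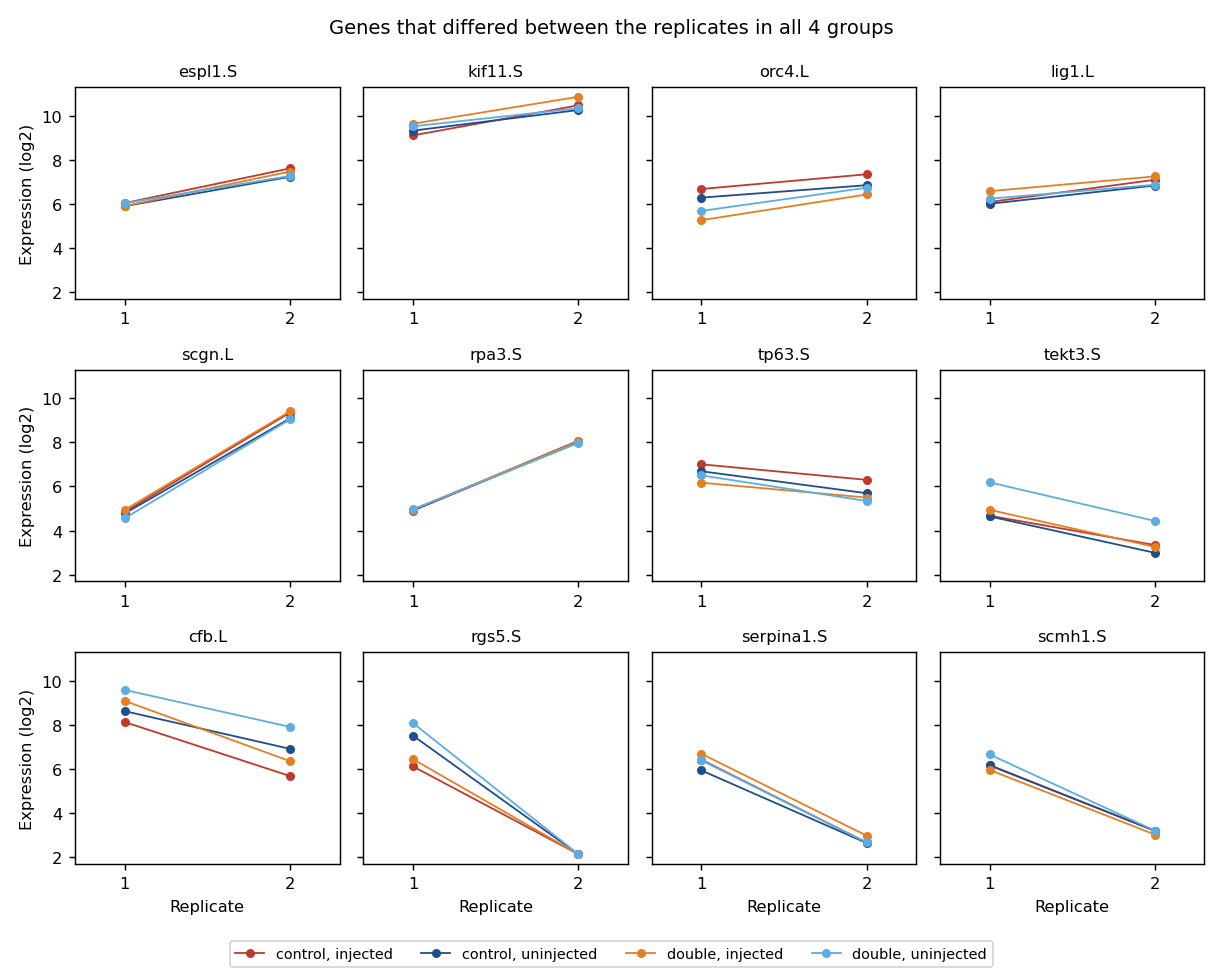
Expression (log2) of 12 genes in replicate 1 and replicate 2, with a line for each of the 4 matched groups. The mitosis and replication genes espl1.S, kif11.S, orc4.L and lig1.L and the genes scgn.L and rpa3.S are higher in replicate 2 in each group, and tp63.S, tekt3.S, cfb.L, rgs5.S, serpina1.S and scmh1.S are lower in each.

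Lower calls in the neural lists lay near the 14.3% of all genes (18.9% in the neural plate list, 19.4% in the forebrain, eye and midbrain list and 16.7% in the neuronal list), with higher calls at 2.7%, 3.23% and 0% against 14.8%. The pan-neural genes sox2.L and sox3.S differed by -0.17 (adjusted p = 0.461) and -0.01 (adjusted p = 0.932), neither of which passed the test. Of 37 neural plate genes 1 was higher and 7 were lower, led by sox1.S (-1.47 (adjusted p = 0.0204)) and both copies of the adhesion molecule ncam1 (ncam1.S -1.21 (adjusted p = 0.0366), ncam1.L -1.05 (adjusted p = 0.0355)). The higher one was gmnn.L (0.35), which restrains replication and keeps neural cells uncommitted. In the forebrain, eye and midbrain list 1 gene was higher and 6 of 31 were lower. Its median was -0.06, 14 of the 31 differences were positive, and the matched medians were -0.19, -0.17, 0.27 and -0.22. Neither copy of the eye field gene rax (rax.L -0.305, rax.S 0.345) or of the forebrain gene otx2 (otx2.L 0.14, otx2.S -0.06) was called. The eye field gene six6.L read 6.37, 6.35, 5.42 and 8.51 in replicate 1 and 2.91, 3.98, 4.23 and 6.71 in replicate 2. Each matched difference was negative (-3.46, -2.37, -1.19 and -1.80), though the uninjected side of double morphants in replicate 2 stayed above most arrays of replicate 1, and the mean was -2.21 (SE 0.36, adjusted p = 0.0123). The midbrain gene en2.S (-1.57 (adjusted p = 0.0432)), the eye gene mab21l2.L (-1.28 (adjusted p = 0.0121)) and the forebrain gene emx2.L (-1.25 (adjusted p = 0.00785)) were lower too. Neuronal genes had 3 lower of 18, with the neuronal filament gene prph.L (-1.19 (adjusted p = 0.0314)), the synuclein gene sncg.S (-0.98 (adjusted p = 0.0109)) and the synaptic vesicle gene syt1.L (-0.45 (adjusted p = 0.0129)). The copy prph.S had the opposite sign and was not called (0.30).

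In the list of hindbrain and Hox genes, the latter of which pattern the hindbrain and trunk, 7 of 32 were lower (21.9%, against 14.3% of all genes) and 0 higher. The list median was -0.35, but the matched medians were -0.86, -0.23, -0.49 and 0.05, with the larger differences in injected sides (-0.73 against -0.11 in uninjected ones). The largest were hoxd10.L (-1.31 (adjusted p = 0.0451)), hoxa11.S (-1.13 (adjusted p = 0.0104)), hoxa2.L (-1.13 (adjusted p = 0.0143)) and hoxd11.L (-1.01 (adjusted p = 0.034)). Neural crest genes went both ways, with 3 higher and 5 lower of 36 (8.33% and 13.9%, against 14.8% and 14.3% of all genes). Among the lower ones were the crest and cartilage regulator sox9.L (-0.85 (adjusted p = 0.0218)) and the melanoblast receptor kit.L (-0.80 (adjusted p = 0.0147)), whereas the border genes pax3.S (0.51), msx1.L (0.34) and msx2.L (0.33) were higher. The second copies sox9.S (-0.34), kit.S (0.23), pax3.L (-0.03) and msx1.S (0.20) were not called.

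Muscle genes had the lowest median of all lists (-1.14), with 7 lower and 3 higher of 39, and here the side mattered most. The median was -2.13 in injected and -0.19 in uninjected sides. Of its members 17.9% were called lower and 7.69% higher, against 14.3% and 14.8% of all genes. With no filter on low values the median was -0.42. The fast myosin heavy chain gene myh8.L read 8.70, 8.81, 8.24 and 9.03 in replicate 1 and 2.52, 7.74, 3.06 and 8.39 in replicate 2. Both injected sides of replicate 2 lay near the bottom of the scale, and the remaining 6 arrays lay between 7.74 and 9.03. Its replicate difference in injected minus uninjected sides was -4.82 (SE 0.38, adjusted p = 0.035). For the fast myosin light chain gene mylpf.L the values were 11.65, 11.96, 11.53 and 12.17 in replicate 1 and 6.82, 11.29, 7.31 and 10.85 in replicate 2, and the difference between sides was -3.53 (SE 0.33, adjusted p = 0.0437). Other contractile genes of the 25 were troponin genes tnnc2.S (-3.75 (SE 0.37, adjusted p = 0.0489)) and tnni1.2.L (-2.93 (SE 0.24, adjusted p = 0.035)), the intermediate filament gene des.1.S (-3.72 (SE 0.26, adjusted p = 0.034)) and the thin filament capping gene tmod4.L (-3.03 (SE 0.20, adjusted p = 0.0332)). The acetylcholine receptor gene chrnd.L, which serves the nerve-muscle synapse, read 7.34, 7.20, 6.92 and 7.52 in replicate 1 and 3.42, 6.33, 3.23 and 7.18 in replicate 2 and had a difference between sides of -3.20 (SE 0.25, adjusted p = 0.035). Muscle actin actc1.L read 11.46 and 12.14 in the injected sides of replicate 2 and 13.56 to 13.90 on the other arrays, and its difference between replicates did not pass the test (-0.86 (adjusted p = 0.175)).

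Some notochord and matrix genes showed the same pattern over the arrays. Of the notochord marker tbxt, the copy tbxt.L was higher in replicate 2 (0.64). The copy tbxt.S was not called (0.41) and lay between 9.86 and 10.93 on all arrays. For the notochord gene not, the copy not.L was not called between replicates (-0.305). The notochord homeobox gene not.S read 8.80, 8.66, 9.47 and 8.99 in replicate 1 and 6.39, 9.41, 7.34 and 9.51 in replicate 2, with a difference between sides of -2.90 (SE 0.20, adjusted p = 0.034). Collagen genes of the notochord and cartilage sheath were lower in the same 2 arrays: col2a1.L read 7.83, 8.09, 8.28 and 8.46 in replicate 1 and 5.0, 7.30, 5.34 and 7.85 in replicate 2 (-2.19 (SE 0.18, adjusted p = 0.035)), and col9a1.L 6.80, 7.32, 8.15 and 7.31 in replicate 1 and 2.14, 6.92, 3.79 and 7.41 in replicate 2 (-4.36 (SE 0.25, adjusted p = 0.0301)). Because the control injected side of replicate 2 was at the lowest value, the last difference is a bound, and so are those of thbs4.L, fstl1.L and ank1.S, which lay below 2.5 in 1 or both injected sides of replicate 2. The matrix genes matn4.L (-2.85 (SE 0.21, adjusted p = 0.035)) and thbs4.L (-2.41 (SE 0.21, adjusted p = 0.0367)), the protease gene mmp21.L (-5.04 (SE 0.29, adjusted p = 0.0301)) and the BMP modulator kcp.L (-2.76 (SE 0.18, adjusted p = 0.0332)) were of the same kind. Among all 25 genes the matched differences ranged from -6.18 to -1.58 in injected and from -1.87 to 0.74 in uninjected sides, and the median of the genes was -3.68 and -0.32. For shh.L, the signal of the notochord and floor plate, which is not among the 25, the values were 8.71, 9.0, 9.69 and 9.70 in replicate 1 and 2.76, 9.40, 7.11 and 9.44 in replicate 2, with the injected side of control morphants of replicate 2 far below the rest. Of the 25 genes, 6 stood in the muscle list, 3 in the notochord list and 4 in the matrix list (2 of them in both of the last), and 6 were also called lower between replicates over all arrays: mylpf.L, tnni1.2.L, fstl1.L, thbs4.L, col2a1.L and ank1.S. In bulk RNA of this kind, fewer cells of a tissue and less RNA in each of its cells cannot be told apart.

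**Figure D4:**
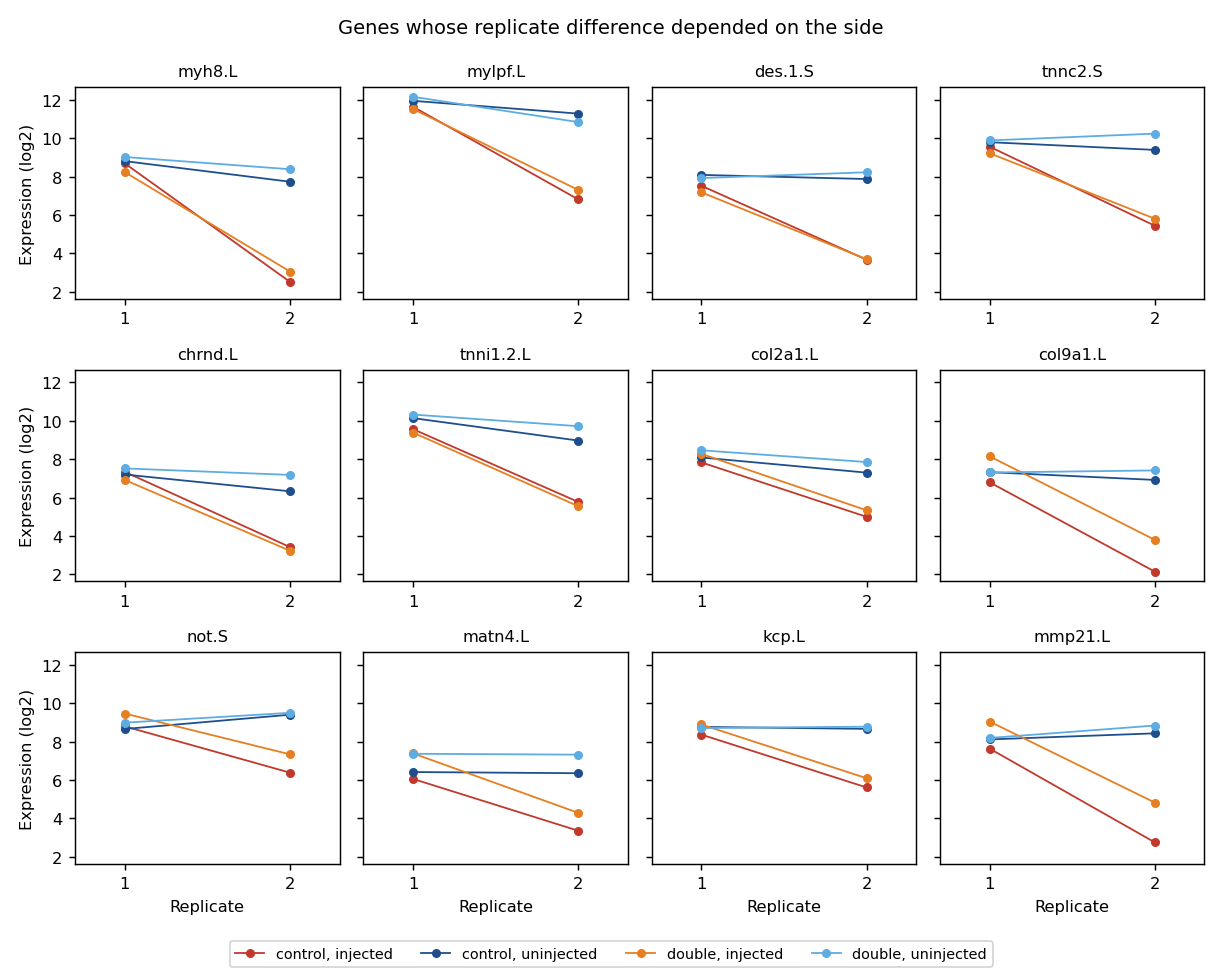
Expression (log2) of 12 of the 25 genes whose replicate difference depended on the side, in replicate 1 and replicate 2 with a line for each matched group. In each panel both injected sides (red and orange) are lower in replicate 2 by more than both uninjected sides (blue), and both injected sides of replicate 2 are the lowest of the 8 arrays.

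Other mesodermal lists had lower calls over all arrays and lower medians in injected than in uninjected sides. Lower calls made up 28.9% of the matrix list, 25.0% of the organizer list and 24.2% of the paraxial list, against 14.3% of all genes. Higher calls made up 5.26%, 7.14% and 6.06%, against 14.8%. In the matrix list 11 of 38 genes were lower and 2 higher, with medians of -1.08 in injected and -0.26 in uninjected sides. Over all arrays the median was -0.93, and -0.11 with no filter on low values. The secreted matrix gene sparc.S (-2.82 (adjusted p = 0.0465)) and the integrin gene itga3.L (-1.66 (adjusted p = 0.0494)) were among the lower ones, with matched differences of -5.18, -1.49, -3.95 and -0.66 for sparc.S and -2.66, -0.82, -2.82 and -0.35 for itga3.L. In the organizer, notochord and floor plate list 7 of 28 were lower, including the guidance gene slit2.S (-1.49 (adjusted p = 0.0243)), and 2 were higher, and the medians were -0.58 and 0.0. Of 33 genes of paraxial mesoderm 8 were lower, with the muscle regulator myod1.L (-1.22 (adjusted p = 0.0351)) and the segment boundary gene epha4.L (-1.10 (adjusted p = 0.00747)) in front, and 2 were higher (the Wnt enhancer rspo2.L 0.65 and hes7.1.L 0.45, a gene of the segmentation clock, whose more variable probe set gave -0.28). The matched differences of slit2.S were -2.38, -1.15, -1.96 and -0.47 and those of myod1.L -2.16, -0.23, -1.38 and -1.10. With uninjected sides alone limma called 2 genes of the matrix list lower, and 0 genes of the organizer and 0 of the paraxial list in either direction. At an unadjusted p under 0.05 these were 5 higher and 5 lower in the organizer list and 8 higher and 6 lower in the paraxial list, whose median was -0.37 in injected and -0.08 in uninjected sides. Against the trend of the muscle list, the slow troponin T gene tnnt1.S read 2.69, 2.78, 2.68 and 2.93 in replicate 1 and 5.95, 5.71, 6.26 and 6.09 in replicate 2. All arrays of replicate 2 were higher on both sides of the embryo (3.23 (SE 0.12, adjusted p = 0.000468)).

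Heart and blood genes had lower medians in uninjected than in injected sides, the reverse of muscle, which is given as a description with no test. Of 41 tested genes 5 were called lower (12.2%, near the 14.3% of all genes) and 0 higher (0%, against 14.8%). The list median was -0.39 in uninjected and 0.12 in injected sides. With uninjected sides alone limma called 6 genes of the list lower and 0 higher (17 and 0 at an unadjusted p under 0.05). Over all 8220 genes tested these were 160 lower and 109 higher (1155 and 959). The genes called over all arrays included lmo2.S (-1.24 (adjusted p = 0.0367)), spib.S (-1.18 (adjusted p = 0.00495)) and fli1.S (-1.17 (adjusted p = 0.0416)), regulators of blood, myeloid and endothelial cells. The copy spib.L was not called (0.01). Endodermal genes went both ways (3 higher and 6 lower of 31, or 9.68% and 19.4%). The secreted protease inhibitor gene serpina1.S read 6.42, 5.94, 6.69 and 6.39 in replicate 1 and 2.67, 2.65, 2.98 and 2.67 in replicate 2, so that all arrays of replicate 2 lay below 3 (-3.62 (SE 0.11, adjusted p = 0.000248)), and ambp.L (-1.84 (adjusted p = 0.019)), which encodes another plasma protein, was lower. In contrast a2ml1.L (1.36 (adjusted p = 0.00449)) and ahsg.L (0.81 (adjusted p = 0.00912)), which also encode secreted plasma-type proteins, were higher.

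Immune genes were called in both directions (3 higher and 6 lower of 19, median -0.44, and -0.19 with no filter on low values). Higher calls made up 15.8%, near the 14.8% of all genes, and lower calls 31.6%, against 14.3%. Complement factor B, cfb.L, read 8.13, 8.62, 9.09 and 9.58 in replicate 1 and 5.68, 6.91, 6.36 and 7.91 in replicate 2, a difference of -2.14 (SE 0.21, adjusted p = 0.00439). The complement genes cfd.L (-1.38 (adjusted p = 0.00707)) and c9.L (-3.05 (adjusted p = 0.00972)) and the NF-kappa-B inhibitor nfkbia.S (-1.74 (adjusted p = 0.00262)) were lower too. The antigen presentation gene cd74.L (1.21 (adjusted p = 0.0128)) was higher, as was the immunoproteasome gene psmb8.L named above.

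In energy metabolism the glycolysis and glycogen list had 5 higher and 10 lower genes of 42 (11.9% and 23.8%, against 14.8% and 14.3% of all genes). Its median was -0.26, and -0.07 with no filter on low values, and it was as low in uninjected (-0.21) as in injected sides (-0.21). Lower genes were lactate dehydrogenase ldhb.L (-1.90 (adjusted p = 0.0071)), phosphoglycerate mutase pgam1.S (-1.83 (adjusted p = 0.029)) and muscle glycogen phosphorylase pygm.L (-1.79 (adjusted p = 0.0115)), and ugp2.L (1.5 (adjusted p = 0.0118)), which makes the sugar donor for glycogen, was higher. The copies ldhb.S (0.06) and ugp2.S (0.47) were not called. Of 28 genes commonly used as references 6 were higher and 4 lower (21.4% and 14.3%, the latter equal to the share of all genes). The copies of gapdh, a glycolytic enzyme, went opposite ways. For gapdh.L the difference was 0.55 (SE 0.10, adjusted p = 0.0173) on the probe set used, and its other 3 probe sets gave 0.60, 0.56 and 0.58, whereas gapdh.S read 11.65, 11.80, 11.74 and 11.86 in replicate 1 and 10.17, 11.04, 10.47 and 11.58 in replicate 2, a difference of -0.95 (SE 0.21, adjusted p = 0.0258). Solute carriers had 16 higher and 29 lower members of 143 (11.2% and 20.3%). Among them were the sialic acid transporter slc35a1.L (2.04 (adjusted p = 0.00455)) and the amino acid carrier slc38a5.S (-1.85 (adjusted p = 0.00788)).

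In the signalling lists the share of called genes lay below the 29.1% of all genes. Higher and lower calls made up 10.2% and 4.08% of the BMP and TGF-beta list, against 14.8% and 14.3% of all genes. They made up 4.44% and 15.6% of the Wnt list, the latter near the share of all genes, and 4.0% and 8.0% of the FGF list. Of 49 BMP and TGF-beta genes 5 were higher, with smad9.S (1.64 (adjusted p = 0.0031)), which carries the BMP signal to the nucleus, and the BMP receptor bmpr1a.L (0.57), and 2 were lower (acvr1.S -0.60, acvr2a.S -0.49, both receptors). The copies bmpr1a.S (-0.18) and acvr1.L (0.08) had the opposite sign and were not called, nor was acvr2a.L (-0.35). In Wnt signalling 7 of 45 were lower, with the secreted inhibitors wif1.S (-1.35 (adjusted p = 0.0373)), frzb.S and sfrp2.S (-0.73), the ligand wnt11.S (-0.90 (adjusted p = 0.0125)) and the target axin2.S (-0.48), and 2 were higher. The copy axin2.L was not called (-0.001). Of 25 genes of FGF signalling 1 was higher and 2 were lower, and among the latter the immediate early gene fos.S read 6.29, 6.45, 7.21 and 6.95 in replicate 1 and 4.28, 4.29, 4.27 and 4.51 in replicate 2 (-2.39 (SE 0.17, adjusted p = 0.00261)), without overlap. The retinoic acid list held 1 large difference, the aldehyde dehydrogenase aldh1a1.L (-2.13 (adjusted p = 0.00184)). In the list of p53 targets, DNA damage and apoptosis 2 of 35 were higher and 5 lower (5.71% and 14.3%, against 14.8% and 14.3% of all genes). Among histone genes 7 of 18 were called (3 higher and 4 lower, or 16.7% and 22.2%). In other lists 7 of 71 splicing factors, 5 of 62 translation factors, 5 of 29 Notch genes, 5 of 25 lysosomal genes, 3 of 16 clock genes, 2 of 12 haem and globin genes and 1 of 16 pronephros genes were called. With histones these lists had medians from -0.30 to 0.06.

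The largest single differences were not led by any list. On top stood prss3.S, which encodes a trypsin-like protease, with values of 2.18, 2.24, 2.24 and 2.18 in replicate 1 and 9.34, 9.27, 7.96 and 8.12 in replicate 2. The next were the homeobox gene hmbox1.L, with 2.14, 2.17, 2.17 and 2.17 in replicate 1 and 7.13, 6.73, 6.87 and 6.15 in replicate 2, and scgn.L, which encodes the calcium sensor secretagogin, with 4.85, 4.78, 4.94 and 4.56 in replicate 1 and 9.35, 9.08, 9.40 and 9.04 in replicate 2. In all 3 genes the replicates were separated by a wide gap. For prss3.S and hmbox1.L the replicate 1 values were at the bottom of the scale, so that 6.46 and 4.56 are lower bounds of the difference, and for scgn.L it was 4.43 (SE 0.08, adjusted p = 6.26e-05). Further higher genes were the sorting nexin snx15 (3.81 (adjusted p = 0.000531)), the nuclear export receptor xpo4.S (3.25 (adjusted p = 0.0145)), the quinone oxidoreductase-like gene cryzl1.L (2.69 (adjusted p = 0.00057)), the mitochondrial myosin myo19.S (2.59 (adjusted p = 0.00297)), ankrd12.S (2.59 (adjusted p = 0.000528)), the mitochondrial thiolase acat1.L (2.56 (adjusted p = 0.00973)) and the uridine kinase-like gene uckl1.L (2.25 (adjusted p = 0.00421)), besides tnnt1.S and rpa3.S.

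On the lower side rgs5.S, a regulator of G protein signalling, came first with 6.12, 7.51, 6.44 and 8.08 in replicate 1 and 2.14, 2.14, 2.14 and 2.14 in replicate 2. All 4 arrays of replicate 2 were at the lowest value, which makes -4.90 a bound. In tyw3.L, which acts in the modification of phenylalanine tRNA, values were 6.42, 5.66, 5.36 and 5.15 in replicate 1 and 2.15, 2.14, 2.14 and 2.14 in replicate 2, again at the bottom in replicate 2 only (-3.50). The others were serpina1.S, the BTG family gene btg5.2.S (-3.51 (adjusted p = 0.00554)), the Schlafen gene slfn13.L (-3.33 (adjusted p = 0.00262)), dapl1.S (-3.30 (adjusted p = 0.000528)), the orphan receptor gpr160.S (a bound of -3.24 (adjusted p = 0.00747)), the Polycomb gene scmh1.S (-3.08 (adjusted p = 0.000468)), acod1lb.L (-3.06 (adjusted p = 0.0071)), the secreted follistatin-like gene fstl1.L (-3.06 (adjusted p = 0.0182)), c9.L and phyhdlb.L (-3.02 (adjusted p = 0.00484)). Of all tested genes, 6 lay below 2.5 on every array of replicate 2 and at or above 4 on every array of replicate 1, and 4 did the reverse. Those with gene names were rgs5.S, tyw3.L, gpr160.S and fcrl2.L in the first set and prss3.S and hmbox1.L in the second. Of all called genes 35 had at least 1 array below 2.5, among them snx15, xpo4.S, aldh1a1.L and en2.S, and the differences of these 4 are bounds as well.

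Differences were compared with other measurements of the same or a related transcript. The second homeolog was not given above for every named gene. Called genes had 642 further probe sets above the filter, of which 536 (83.5%) had the sign of the called one, with a median of 0.40 in that direction against 0.55 for the called probe sets. Both homeologs were tested for 1396 pairs, of which 911 (65.3%) had one sign. Where a gene was called, the other homeolog had the same sign in 601 of 821 cases (73.2%), with a median of 0.25 in that direction against 0.58. For called differences of at least 2, the other copy had the same sign in 13 of 14 cases but a median of only 0.40 against 2.80. Pairs of this kind were xpo4 (xpo4.S 3.25, xpo4.L 0.27), scmh1 (scmh1.S -3.08, scmh1.L -0.23) and dapl1 (dapl1.S -3.30, dapl1.L -0.08). The btg5.2 pair was lower with both copies (btg5.2.S -3.51, btg5.2.L -1.56). Both copies were called in 166 pairs, with one sign in 141 and opposite signs in 25, among them gapdh, the haem synthesis gene alad (alad.L -0.55, alad.S 1.07) and the copper transporter slc31a1 (slc31a1.L -0.80, slc31a1.S 1.35). Near-identical copies can share probes, so that values of .L and .S are not fully separate measurements.

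**Figure D5:**
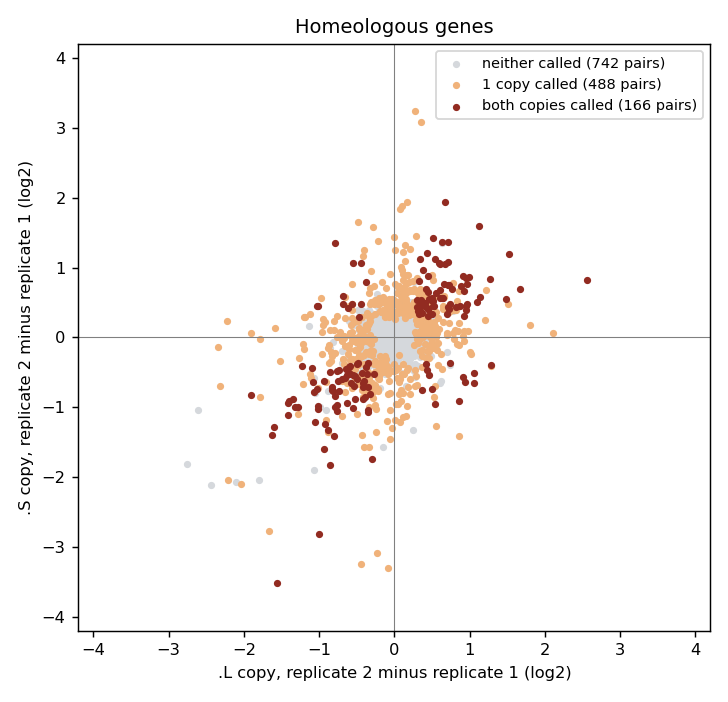
Replicate 2 minus replicate 1 (log2) of the .L copy against the .S copy for 1396 pairs of homeologs, coloured by whether neither copy, 1 copy or both copies were called. Of the 166 pairs with both copies called, 141 lie in the quadrants of one sign, and points far out on the vertical axis near 0 on the horizontal one are genes whose large difference was seen in the .S copy only.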

How the data were processed

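RNA of pooled sides of neurulae was measured on 8 Affymetrix *Xenopus laevis* arrays. The authors made the deposited log2 expression values with GCRMA, whose version is not given in the sources used here, and this step corrects background by probe sequence and quantile normalizes all arrays together, so that an overall shift between replicates would not be seen. Of 32635 probe sets, 15505 were listed with 1 gene, 279 with several and 16851 with none in the platform annotation, and the first gave 11304 genes, of which 11228 matched RefSeq names. Array values have no read depth, and the number of arrays limits the precision.

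Per gene the probe set with the highest mean over all arrays was kept, provided its variance was above 0 and its mean reached 4 (log2) in 1 or more groups. The lowest value is 2.14. The replicate difference was fitted in R 4.3.3 with limma 3.58.1 (lmFit, eBayes) with group and replicate as terms (3 residual degrees of freedom, 2.5 prior ones), and genes were called at a Benjamini-Hochberg adjusted p under 0.05 over all genes tested. Products of replicate with side and with morpholino were fitted in the same way, with 2 residual degrees of freedom. The paper's local fdr assumes that most genes do not differ and was not used. The labels give each group replicates 1 and 2, and the study's supplement says that the arrays come from 2 independent experiments. The number was read as the experiment and is the comparison itself, so it could not serve as a block.

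Genes are named as the 12 largest called differences of each direction with a gene name and 4 matched differences of one sign, as up to 4 called members of each list with the largest difference, and as kmt5b, kmt5c and the POU-V genes in any case. Other genes were named after their values were seen, including all genes with a difference between sides. The comparison and the gene lists were chosen with earlier results of these data known. Alternatives changed the filter, probe set, scaling, variance model, matching, threshold and arrays used.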

Additional observations from a re-analysis of the deposited data

Results flagged for a closer look

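The replicate difference was tested between sides, and 25 genes had a lower one in injected sides. Those named in the report were myh8.L (-4.82), mylpf.L (-3.53), tnnc2.S (-3.75), tnni1.2.L (-2.93), des.1.S (-3.72), tmod4.L (-3.03), chrnd.L (-3.20), not.S (-2.90), col2a1.L (-2.19), col9a1.L (-4.36), matn4.L (-2.85), thbs4.L (-2.41), mmp21.L (-5.04), kcp.L (-2.76), fstl1.L (-2.71) and ank1.S (-1.94), each as the difference in injected minus that in uninjected sides.

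Some genes had 1 matched difference far from the other 3 by Dixon's test, which chance does for about 1 in 20 genes. Among them topbp1.L had 1 high difference of 1.59 beside 0.51 to 0.63, and pou5f3.2.L had 1 low difference of 0.17, that of the uninjected side of double morphants, beside 1.12 to 1.27. For foxi1.L the injected side of control morphants gave 0.95 and the others -0.31 to -0.10. The value set apart was -3.29 for serpina1.S, -3.45 for scmh1.S, -1.53 for sncg.S, -0.30 for sox3.S and -0.25 for a2m.S.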

How the results depend on the processing

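Counts of genes higher and lower in replicate 2 (1218 and 1174) stayed within 1.5 times under no filter, a mean log2 value of at least 6, the most variable probe set, median centring, quantile normalization and a variance trend. A fit with replicate as a block cannot be made, since the replicate is the comparison, but with the sides of one pool of embryos paired as a random block (correlation 0.131) 1016 and 976 genes passed. With sides of one pool averaged first 557 were higher and 827 lower. The counts were 2949 and 2853 over every probe set, 326 and 315 without matching, 491 and 448 in control morphants alone, 2 and 0 in double morphants alone, 326 and 541 in injected sides alone, 109 and 160 in uninjected sides alone, 2350 and 2306 at an adjusted p under 0.2, and 171 and 262 with a difference of at least 1. Leaving out the matched arrays of each group in turn gave 402 to 1162 higher and 450 to 1059 lower genes. Except where fewer arrays or other thresholds were used by construction, the cause was not tested.

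The 25 genes that differed between sides became 0 with no filter, 61 with a mean of at least 6 (24 shared), 41 with the most variable probe set (25 shared), 89 with a variance trend (25 shared) and 0 to 48 with matched arrays left out (16 of the 48 shared). For double against control morphants 1 gene passed with the most variable probe set, and 0 to 0 passed with matched arrays left out. These alternatives for both terms were chosen after seeing the data.

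Of 3455 values of 194 named genes under the alternatives, 2512 kept direction and call, 893 kept the direction and no longer passed, 28 passed and 22 changed sign. The more variable probe set reversed kmt5a.S (-1.54) and hes7.1.L (-0.28). Genes with other signs in uninjected sides alone were not.S (0.63), mmp21.L (0.48), des.1.S (0.043), actc1.L (0.083), shh.L (0.066), sox2.L (0.16), sox3.S (0.089) and foxi1.L (-0.22). In control morphants alone pou5f3.1.L gave 0.21, foxj1.S 0.015 and dapl1.L 0.20, and in double morphants alone pou5f3.3.L gave -0.27, foxi1.L -0.21 and sox3.S 0.072. Median centring gave 0.003 for sox3.S. With matched arrays left out in turn pou5f3.3.L ranged from -0.093 to 0.44, foxj1.L from -0.004 to 0.16, foxi1.L from -0.18 to 0.24 and sox3.S from -0.052 to 0.082, with the changed sign in each case when control injected sides were left out, and dapl1.L ranged from -0.22 to 0.024, with the changed sign when double injected sides were left out. None of these genes except kmt5a.S and hes7.1.L passed the test between replicates. Of 344 list medians under the alternatives 328 moved by less than the spread of the 4 matched medians. With no filter the matrix median was -0.11 and that of immunity -0.19. Genes at the bottom of the array scale limit what can be measured there.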

Other observations

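Further lists were drawn up after the values were seen and are given as a description, beside 14.8% higher and 14.3% lower of all genes. Of 11 tested subunits of the cytosolic chaperonin CCT, which folds actin and tubulin, 5 were higher in replicate 2 (45.5%) and 0 lower (median 0.21): cct5b (0.44), cct2.S (0.54), cct3.S (0.48), cct4.L (0.70) and cct7.S (0.50). Of 59 genes for translocation into the endoplasmic reticulum and early secretion, 2 were higher (3.39%) and 9 lower (15.3%, near the share of all genes), with a median of -0.14. Among the lower ones were ssr1.S (-0.88) and ssr1.L (-0.42) of the translocon-associated complex and ddost.S (-0.50) and rpn2.S (-0.41) of the oligosaccharyltransferase. Claudins, which seal tight junctions, had 4 lower of 9 (44.4%), with cldn6.1.S (-0.86) and cldn6.1.L (-0.39), but a list median of only -0.025. Of 8 genes of sterol synthesis 1 was lower (12.5%), dhcr7.L (-0.91). RNA polymerase subunits had 5 higher and 1 lower of 23 (21.7% and 4.35%) and nuclear pore genes 4 higher and 1 lower of 22 (18.2% and 4.55%). Aminoacyl-tRNA synthetases had 4 higher and 3 lower of 24 (16.7% and 12.5%), near the shares of all genes.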
